A study of Homo sapiens with 12 samples.

Results

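The Hippo pathway readout of spheroids of DU145, an established human prostate cancer line, was described here through 10 genes chosen by name from knowledge of the pathway: CTGF, CYR61, ANKRD1, AMOTL2, AXL, LATS2, AJUBA, CRIM1, YAP1 and WWTR1. They were chosen with earlier results of these data known. All 10 were found by symbol among the 26485 genes of the deposited tables, and all 10 passed the filter on low counts that left 14732 genes for testing. RNA was sequenced from 12 spheroid samples, 4 biological replicates of each of 3 lines: DU145KO, in which the gene of the α2 subunit of the collagen receptor α2β1 integrin (ITGA2) had been targeted with Crispr/Cas9; DU145KO+α2, the same cells stably transfected with α2 integrin cDNA in the pAWneo2 vector; and DU145KO+vector, the same cells stably transfected with the empty pAWneo2. All 3 lines carry the knockout, so no sample has the α2 gene untouched. The 2 transfected lines went through drug selection and DU145KO did not, and whether a line descends from 1 clone is not given in the sources used here. Spheroids of 8000 cells, 280000 cells to a mold, were kept for 72 h in serum-free medium.

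Hippo signalling is a kinase relay in which STK3 and STK4, with the adaptor SAV1, activate LATS1 and LATS2 with their MOB1 partners. The LATS kinases phosphorylate the coactivators YAP (from YAP1) and TAZ (from WWTR1) and so keep them out of the nucleus. Unphosphorylated YAP and TAZ enter the nucleus and bind TEAD factors, which recognise the motif GGAATG and switch on genes such as CTGF and CYR61. Cell attachment, integrin and Src signalling, actin tension, cell density and serum lipids all bear on the relay in epithelial and carcinoma cells, and much of its control acts on YAP and TAZ protein, which mRNA levels do not report. Among the 10 genes, YAP1 and WWTR1 encode the coactivators themselves. LATS2, AJUBA and AMOTL2 encode regulators of the relay and are also induced by YAP and TAZ. CTGF, CYR61, ANKRD1, AXL and CRIM1 are downstream targets with other functions.

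To show where a TEAD motif lies close to the start of these genes, the 250 bases before the RefSeq start site (GRCh38.p14) were searched on both strands for GGAATG. A sequence was held for 8 of the 10 genes, and 3 of these 8 contained the motif. It was present in 11.9% of the 27305 promoter windows of the same length and in 9.32% of the 11572 windows of tested genes. The windows of CTGF (chr6:131951373-131951622, minus strand), ANKRD1 (chr10:90921088-90921337, minus strand) and YAP1 (chr11:102110197-102110446, plus strand) are shown 5′ to 3′ because CTGF and YAP1 were the genes that changed in the comparison of DU145KO+α2 with DU145KO+vector and because ANKRD1 shares the motif. Capitals mark GGAATG.
CTGF: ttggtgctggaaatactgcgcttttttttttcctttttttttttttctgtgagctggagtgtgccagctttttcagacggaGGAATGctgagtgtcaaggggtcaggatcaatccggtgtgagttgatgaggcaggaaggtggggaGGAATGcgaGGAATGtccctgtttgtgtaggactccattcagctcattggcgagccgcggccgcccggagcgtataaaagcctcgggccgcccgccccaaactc
ANKRD1: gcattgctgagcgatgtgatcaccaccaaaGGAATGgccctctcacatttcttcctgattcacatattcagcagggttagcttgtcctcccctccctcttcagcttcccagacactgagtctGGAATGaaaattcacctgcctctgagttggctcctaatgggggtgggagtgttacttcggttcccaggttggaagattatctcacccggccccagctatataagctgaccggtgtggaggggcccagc
YAP1: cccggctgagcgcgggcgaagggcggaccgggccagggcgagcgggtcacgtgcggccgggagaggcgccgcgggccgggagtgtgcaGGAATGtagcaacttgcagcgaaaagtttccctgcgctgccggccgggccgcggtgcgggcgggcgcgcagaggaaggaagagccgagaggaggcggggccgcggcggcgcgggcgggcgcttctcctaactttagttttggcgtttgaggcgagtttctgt
CTGF held the motif 3 times, starting 169, 104 and 95 bases before the start site. ANKRD1 held it at 220 and 128 bases and YAP1 once at 162 bases. The windows of AMOTL2, AXL, LATS2, AJUBA and WWTR1 held none. Only 1 RefSeq start per gene was searched. The window of WWTR1 (chr3:149703274-149703523) lay inside the GENCODE span of the gene given below. That of AMOTL2 (chr3:134375418-134375667) overlapped its span in part. The AP-1 motif TGANTCA, which does not overlap GGAATG, was found only in the ANKRD1 window, 195 bases before the start, against 6.60% of all windows. A match is a run of letters and not a measured binding site.

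The edited gene was read first. ITGA2 had 21.2, 20.2, 25.8 and 15.7 CPM (read counts divided by library size, which was scaled by the trimmed mean of M-values, TMM) in DU145KO replicates 1 to 4, and 18.8, 18.2, 20.2 and 13.0 CPM in those of DU145KO+vector. With the α2 cDNA it had 301, 328, 332 and 259 CPM. The DU145KO+α2 samples lay far above all others, 17.3-fold over DU145KO+vector (adjusted p = 3.15e-09, edgeR quasi-likelihood test with Benjamini-Hochberg adjustment over the 14732 genes, as for every adjusted p in the report). ITGA2 transcript was thus still counted in both other lines, and protein was not measured in these files. Total counts ran from 13948734 to 19988111 per sample. The epithelial markers KRT8, KRT18, EPCAM and CDH1 were present throughout, whereas the leukocyte marker PTPRC and the fibroblast markers DCN and LUM had at most 1 count.

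The levels of the 10 genes spanned a wide range. In the RPKM values of the authors, which are per length and so can be compared between genes, the median over the 12 samples was 63.4 for AXL, 55.5 for CRIM1 and 51.6 for YAP1, whose mean levels stood at the 92.9th, 91.7th and 90.9th percentile of all tested genes. WWTR1 followed at 31.4, AMOTL2 at 19.3, CYR61 at 16.8, AJUBA at 11.5 and LATS2 at 7.26. CTGF, often used as the leading reporter of YAP activity, stood at 4.97, the 40.5th percentile, and ANKRD1 was the lowest at 0.812, at percentile 14.3. The order of neighbours was the same in 12 of 12 samples only for YAP1 over WWTR1 and for CTGF over ANKRD1. AXL exceeded CRIM1 in 9 of 12 samples, CRIM1 exceeded YAP1 in 10, and AMOTL2 exceeded CYR61 in 8, so these neighbours overlapped. The other 4 neighbouring pairs kept their order in 11 of 12.

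**Figure D1:**
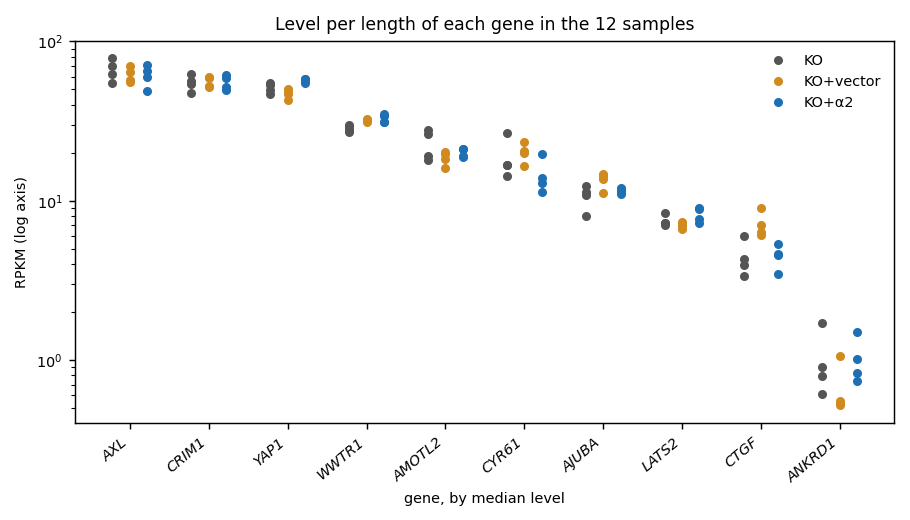
RPKM on a log axis of the 10 genes, ordered by median, with 1 point per sample and the 3 lines side by side in colour. AXL, CRIM1 and YAP1 sit between 42.6 and 78.6 RPKM, CTGF between 3.37 and 9.02 and ANKRD1 between 0.520 and 1.70.

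The first comparison set DU145KO+α2 against its vector control DU145KO+vector, a line that had been transfected and selected alike. Each was 1 stably transfected line, so α2 and other differences between the 2 lines cannot be told apart. CTGF was lower and YAP1 higher in DU145KO+α2, and the other 8 genes did not pass the test. None of the 10 differed by more than 2-fold, against 2.21% of all tested genes that did so with an adjusted p below 0.05. With 1 of 10 genes higher and 1 of 10 lower, the counts stood beside a background of 5.96% of all tested genes higher and 5.95% lower. The median log2 fold change of the 10 genes was 0.01, with 5 above 0 and 5 below, against -0.01 over all tested genes.

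CTGF (now named CCN2; chr6:131948176-131951372, minus strand, GENCODE release 44 on GRCh38) encodes a secreted matricellular protein that binds integrins and growth factors. It had 12.3, 10.7, 10.9 and 8.15 CPM in DU145KO+α2 replicates 1 to 4 and 21.0, 16.5, 14.3 and 14.9 CPM in DU145KO+vector. The 2 lines did not overlap, and each DU145KO+α2 sample lay below the DU145KO+vector sample with its number. CTGF was 1.59-fold lower in DU145KO+α2 (log2 fold change -0.67 ± 0.17, SE, n = 4 per line, 95% interval -1.03 to -0.30, adjusted p = 0.0194). These values rest on 128 to 379 counts per sample. Without DU145KO+α2 replicate 4 the adjusted p was 0.0625 (log2 fold change -0.56) and without DU145KO+vector replicate 1 it was 0.0688 (-0.52). The gene LINC01013, which covers 11.9% of the CTGF exon bases on the opposite strand, had at most 1 count in any sample.

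CYR61 (now CCN1; chr1:85580761-85584589, plus strand), a matricellular relative of CTGF that is induced early after YAP activation, had 44.3, 32.0, 29.8 and 26.0 CPM in DU145KO+α2 and 53.1, 47.0, 46.1 and 38.0 CPM in DU145KO+vector. It was lower in DU145KO+α2 in 4 of 4 pairs with the same number, while the ranges of the lines overlapped. Its log2 fold change of -0.48 ± 0.20 did not pass the test (adjusted p = 0.145). It did once samples were blocked by their replicate number (log2 fold change -0.49, adjusted p = 5.80e-04), as it also did without DU145KO+α2 replicate 1, the highest sample of that line (-0.65, adjusted p = 0.0455).

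YAP1 (chr11:102110447-102233424, plus strand) had 329, 320, 334 and 317 CPM in DU145KO+α2 and 284, 280, 245 and 267 CPM in DU145KO+vector. Every DU145KO+α2 sample lay above every DU145KO+vector sample. The rise was 1.21-fold (log2 fold change 0.27 ± 0.07; 95% interval 0.12 to 0.42; adjusted p = 0.0193), on 3874 to 6406 counts per sample. Leaving out DU145KO+α2 replicate 3, DU145KO+vector replicate 3 or DU145KO+vector replicate 4 gave adjusted p-values of 0.0534, 0.0751 and 0.0513 with log2 fold changes of 0.27, 0.23 and 0.27. CTGF and YAP1 thus moved in opposite directions in this comparison.

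WWTR1 (chr3:149517235-149736714, minus strand), the gene of TAZ, had 185, 166, 184 and 170 CPM in DU145KO+α2 and 174, 168, 174 and 174 CPM in DU145KO+vector. The lines overlapped (log2 fold change 0.03, 95% interval -0.10 to 0.17, adjusted p = 0.827). WWTR1-AS1, which covers 9.05% of the WWTR1 exon bases on the opposite strand, had 5 to 15 counts against 2196 to 3330 for WWTR1.

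The genes of regulators that YAP induces in turn gave smaller differences. LATS2 (chr13:20973036-21061586, minus strand), the kinase that restrains YAP and TAZ, had 48.6, 39.98, 49.9 and 43.0 CPM in DU145KO+α2 and 40.1, 40.8, 37.1 and 38.9 CPM in DU145KO+vector. DU145KO+α2 was higher in 3 of 4 pairs with the same number and slightly lower in number 2. The log2 fold change was 0.21 ± 0.08 (adjusted p = 0.126; with the replicate block 0.0298). AJUBA (chr14:22971177-22982551, minus strand), a LIM protein of cell junctions that binds and inhibits LATS kinases, had 56.4, 59.4, 60.1 and 62.9 CPM in DU145KO+α2 and 57.7, 76.2, 75.2 and 71.5 CPM in DU145KO+vector. It was lower in 4 of 4 pairs with the same number, by 0.03 to 0.36 on the log2 scale, and passed the test only with the block (log2 fold change -0.23 ± 0.12, adjusted p = 0.234; with the block 0.0176). AMOTL2 (chr3:134355347-134375479, minus strand), an angiomotin that holds YAP at junctions and actin, had 99.6 to 111 CPM in DU145KO+α2 and 84.1 to 106 CPM in DU145KO+vector, which overlapped (log2 fold change 0.11, adjusted p = 0.654).

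With the block, 2 of the 10 genes were higher in DU145KO+α2 (YAP1 and LATS2) and 3 were lower (CTGF, CYR61 and AJUBA). In blocked fits that left out 1 replicate number, CTGF, CYR61 and YAP1 kept their calls in 4 of 4. LATS2 lost its call without number 1, 3 or 4 (adjusted p = 0.133, 0.238 and 0.0527) and AJUBA without number 2 or 3 (0.1195 and 0.128). The block raised the background as well, to 12.9% of all tested genes higher and 13.7% lower. The fold changes themselves hardly moved with the block, as for CYR61 (-0.48 without it, -0.49 with it).

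The remaining targets did not separate the lines. AXL (chr19:41219223-41261766, plus strand), a receptor tyrosine kinase of the TAM family, ranged from 242 to 346 CPM in DU145KO+α2 and from 274 to 346 CPM in DU145KO+vector, with a log2 fold change of -0.02 and a 95% interval of -0.28 to 0.25. CRIM1 (chr2:36355778-36551135, plus strand), a transmembrane protein that binds bone morphogenetic proteins, ranged from 280 to 343 CPM and from 291 to 336 CPM, with a log2 fold change of -0.01 and an interval of -0.21 to 0.19. Both intervals exclude a change of 1 on the log2 scale. ANKRD1 (chr10:90912096-90921087, minus strand), a nuclear ankyrin repeat protein that is among the strongest YAP targets in many cell types, had only 15 to 58 counts per sample. It had 1.61, 1.45, 2.01 and 2.99 CPM in DU145KO+α2 and 1.05, 2.08, 1.09 and 1.03 CPM in DU145KO+vector. Its interval ran from -0.12 to 1.36 around a log2 fold change of 0.62 (adjusted p = 0.294), which holds both no change and a 2-fold rise. Leaving out 1 sample gave log2 fold changes from 0.37 to 0.91, none of them called. ANKRD1 was not called with the block (0.59, adjusted p = 0.1496) but was in the blocked fit without number 2 (1.01, adjusted p = 0.0141), the number of its highest DU145KO+vector sample.

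**Figure D2:**
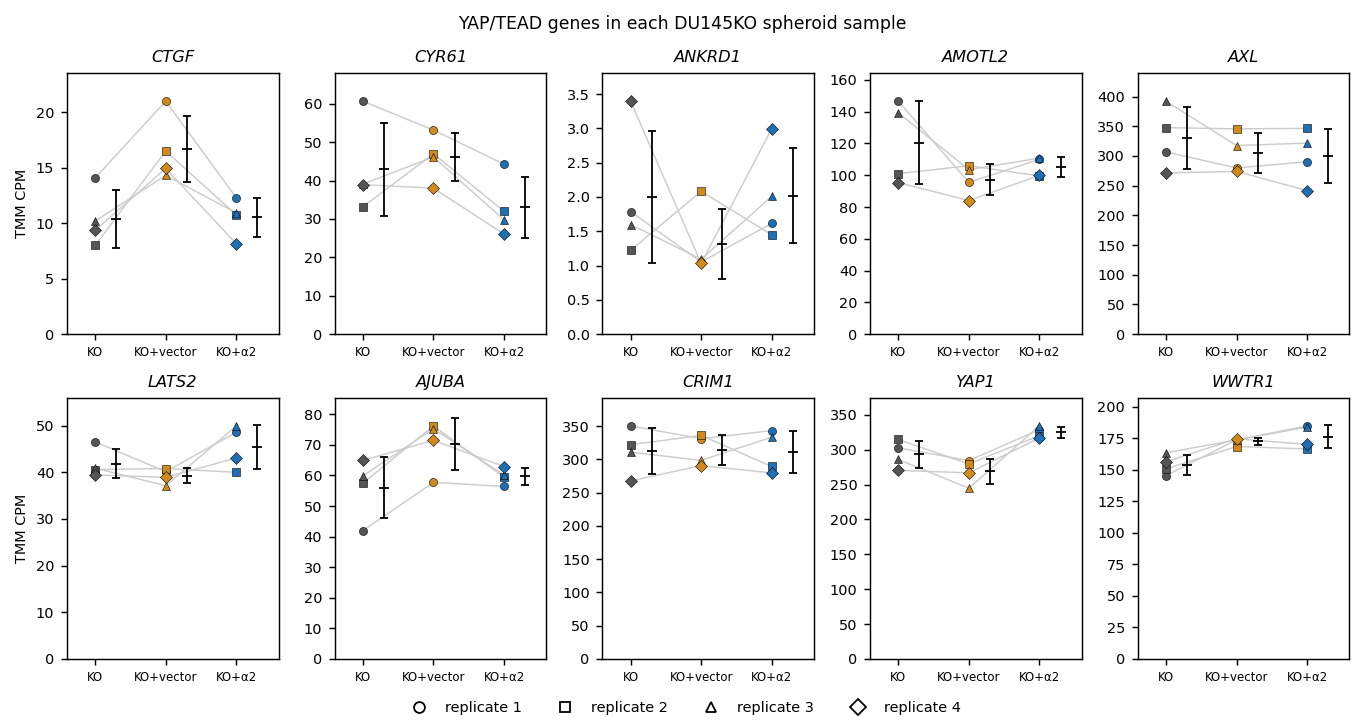
TMM-scaled CPM of each of the 10 genes in the 12 samples, from 0 on a linear axis, with 1 symbol shape per replicate number, grey lines joining equal numbers, and black bars giving the mean ± SD of each line (n = 4). CTGF is highest in all 4 DU145KO+vector samples (14.3 to 21.0 CPM, DU145KO+α2 at most 12.3), and YAP1 is highest in all 4 DU145KO+α2 samples (317 to 334 CPM).

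DU145KO+α2 was also set against the untransfected DU145KO, a comparison in which transfection and selection differ along with α2. None of the 10 genes passed the edgeR quasi-likelihood test. At an unadjusted p under 0.05 there was 1 of the 10, WWTR1, beside 3147 of the 14732 tested genes. DESeq2 also called WWTR1, while voom with limma called none. At an adjusted p below 0.05 the background was 3.09% of all tested genes higher and 5.08% lower, and 2.10% differed more than 2-fold. With the block, WWTR1 was higher and CYR61 lower, against a background of 9.93% higher and 12.4% lower. The blocked call of WWTR1 was lost without number 1 (adjusted p = 0.101) and that of CYR61 without number 4 (0.0705).

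WWTR1 had 145, 151, 163 and 156 CPM in DU145KO, below every value of DU145KO+α2. The difference was 1.15-fold (log2 fold change 0.20 ± 0.06, adjusted p = 0.0723; with the block 0.00778). CYR61 had 60.7, 33.2, 39.1 and 38.9 CPM in DU145KO. It was lower in DU145KO+α2 in 4 of 4 pairs with the same number (log2 fold change -0.38 ± 0.20, adjusted p = 0.295, with the block 0.00651). YAP1 had 303, 315, 286 and 270 CPM in DU145KO, all below the lowest DU145KO+α2 sample, and its log2 fold change of 0.15 ± 0.07 missed the threshold in both fits (adjusted p = 0.250; with the block 0.0509).

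CTGF, by contrast with its values in DU145KO+vector, had 14.1, 8.00, 10.2 and 9.37 CPM in DU145KO. These overlapped the DU145KO+α2 samples fully, with a log2 fold change of 0.02 and a 95% interval of -0.36 to 0.40 (adjusted p = 0.970). The lower CTGF of DU145KO+α2 was thus measured against DU145KO+vector and not against DU145KO. The remaining 6 genes had log2 fold changes between -0.20 (AMOTL2) and 0.12 (LATS2), and their lines overlapped.

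DU145KO+vector was compared with DU145KO, 2 lines that differ in transfection and selection and that both lack the α2 cDNA. ITGA2 itself had a log2 fold change of -0.23 between them (adjusted p = 0.534, with the block 0.0402). None of the 10 genes passed the edgeR quasi-likelihood test, and DESeq2 and voom with limma each called 1, CTGF. An unadjusted p under 0.05 was reached by 4 of the 10 (CTGF, AJUBA, WWTR1 and AMOTL2) and by 2214 of the 14732 tested genes. At an adjusted p below 0.05 the background was 0.496% of all tested genes higher, 1.84% lower and 0.835% changed more than 2-fold. CTGF was 1.61-fold higher in DU145KO+vector (log2 fold change 0.68 ± 0.17; 95% interval 0.31 to 1.06) with an adjusted p of 0.0522, and the lines did not overlap. Without DU145KO replicate 1 the adjusted p was 0.0170 (log2 fold change 0.87), and without DU145KO+α2 replicate 4, which enters only through the shared scaling and estimate of spread, it was 0.0459 (0.69).

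With the block, 3 of the 10 genes were higher in DU145KO+vector, against a background of 5.59% higher and 7.85% lower. They were CTGF (adjusted p = 1.90e-04), AJUBA (log2 fold change 0.33, adjusted p = 0.00308) and WWTR1 (0.16, adjusted p = 0.0347). In blocked fits that left out 1 number CTGF and AJUBA kept their calls in 4 of 4 and WWTR1 in 0 of 4 (adjusted p = 0.0565 to 0.186). AJUBA had 41.9, 57.5, 59.9 and 64.9 CPM in DU145KO and was higher with the vector in 4 of 4 pairs with the same number, and the DU145KO+vector samples of WWTR1 all lay above the highest DU145KO sample. The 3 comparisons share samples pairwise, so the values of DU145KO+vector enter both the lower CTGF of DU145KO+α2 and the higher CTGF against DU145KO. The effect of the vector and of selection on these genes cannot be told apart.

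**Figure D3:**
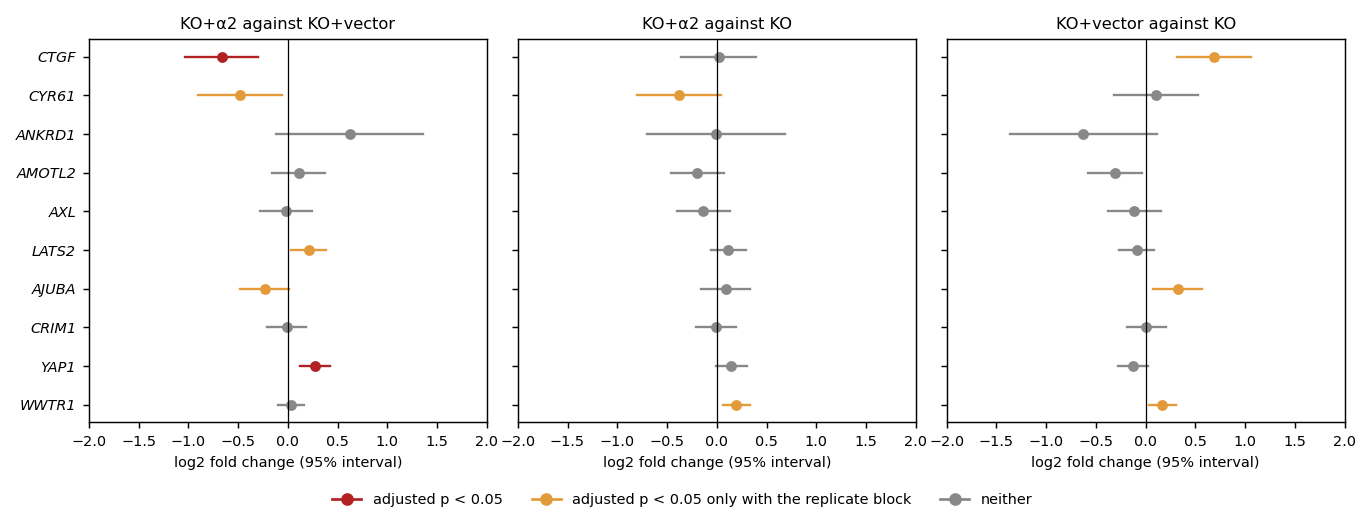
Log2 fold changes of the 10 genes (points) with 95% intervals (lines) in the 3 comparisons, coloured by whether the adjusted p was below 0.05 without the block, only with it, or in neither fit. CTGF (-0.67) and YAP1 (0.27) are the 2 genes in the first colour, both in DU145KO+α2 against DU145KO+vector.

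The replicates with the same number moved together, and the genes differed in how far. The term for the replicate number in the blocked fit, a test added after the data were seen, was called for 5 of the 10 genes (CTGF, CYR61, AXL, AJUBA and CRIM1), against 35.7% of all tested genes. Replicate 1 was the highest sample of CTGF and of CYR61 in each of the 3 lines. In CYR61 it stood at 60.7 CPM in DU145KO against 33.2 to 39.1 CPM in the others, and in AJUBA it was the lowest sample of each line. YAP1 and WWTR1, whose replicates lay close together, did not show the term (adjusted p = 0.325 and 0.4996). What the numbers stand for is not given in the labels.

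The genes whose log2 CPM was most like that of CTGF over the 12 samples, by Pearson's r, were C1orf123 (0.94), KCTD17 (0.92) and HEXA (0.92), a lysosomal hexosaminidase subunit. CYR61 had r = 0.75 with CTGF and stood at rank 140 among the tested genes. For CYR61 the 3 nearest were PHLDA3 (0.94), a p53-induced repressor of Akt, TCN2 (0.92) and CTSF (0.91), a cathepsin. These samples share replicate numbers and lines, so the values describe likeness in these 12 samples. YAP1 had r = -0.43 with CTGF and -0.44 with CYR61, and ANKRD1 had -0.50 and -0.32. CRIM1 went the other way, with 0.44 and 0.53. WWTR1 had 0.28 with CTGF and -0.23 with CYR61, and AMOTL2 had -0.07 and 0.35. For AXL, LATS2 and AJUBA the values lay between -0.27 and 0.11.

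Of 14 tested genes from a list of other YAP and TAZ targets, 4 rose and 1 fell in DU145KO+α2 against DU145KO+vector, with a list median of 0.09 on the log2 scale, beside 5.96% of all tested genes higher and 5.95% lower. The 4 that rose were DOCK5, a guanine nucleotide exchange factor for Rac (0.57 ± 0.10, adjusted p = 0.00105), TGFB2, a transforming growth factor β ligand (0.39 ± 0.10, 0.0188), GADD45A, a stress-induced gene (0.50 ± 0.13, 0.0199), and ARHGEF17, another guanine nucleotide exchange factor (0.24 ± 0.07, 0.0463). CCDC80, an extracellular matrix protein, fell (-0.66 ± 0.11, adjusted p = 0.00108). The 20 tested genes nearest to DOCK5 on chromosome 8 had a median log2 fold change of 0.49 in the same comparison, close to its own value. For CTGF, CYR61 and YAP1 the corresponding medians were 0.04, -0.01 and 0.02. Against DU145KO, DOCK5 rose (0.52, adjusted p = 0.00271) and CCDC80 fell (-0.52, 0.00811), as the only 2 called genes of the list, beside 3.09% of all tested genes higher and 5.08% lower. In fits that left out 1 sample, DOCK5 and CCDC80 kept their calls in 12 of 12 in both comparisons, while against DU145KO+vector TGFB2 kept its call in 10, GADD45A in 7 and ARHGEF17 in 4 of 12. ARHGEF17 was also not called with library size alone, with no filter on low counts or with only the 2 lines compared. With the replicate block, 6 genes of the list were higher and 2 lower against DU145KO+vector, where 12.9% of all tested genes were higher and 13.7% lower. Against DU145KO 5 were higher and 3 lower with the block, where 9.93% of all tested genes were higher and 12.4% lower.

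IGFBP3, a secreted binding protein of insulin-like growth factors that is on that list and was named after its values were seen, had the largest log2 fold change of the list (1.85 ± 0.62) without passing the test (adjusted p = 0.0859; with the block 0.0424). It had 42.7, 29.0, 37.0 and 102 CPM in DU145KO+α2 and 27.2, 11.7, 7.25 and 11.6 CPM in DU145KO+vector. DU145KO ranged from 13.5 to 82.6 CPM and so covered much of both.

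Of 15 Hippo kinases and adaptors upstream of YAP, 1 fell and none rose in the first comparison, a share near the 5.95% of all tested genes that were lower. TAOK3, a kinase that activates STK3 and STK4, fell in DU145KO+α2 against DU145KO+vector (-0.40 ± 0.09, adjusted p = 0.00798). Against DU145KO, TAOK3 fell by 0.37 (adjusted p = 0.0164) and WWC1 fell by 0.80 (adjusted p = 1.51e-04). These were 2 of the 15, and none rose, beside 5.08% of all tested genes lower. WWC1 encodes KIBRA, an upstream activator of LATS. It also fell by 0.82 in DU145KO+vector against DU145KO (adjusted p = 4.45e-04), the only gene of the pathway lists called there without the block. In that comparison 1.84% of all tested genes were lower. WWC1 kept its calls in 12 of 12 fits that left out 1 sample. TAOK3 kept its call in 12 of 12 such fits against DU145KO+vector and in 10 against DU145KO. With the replicate block 1 gene of the list was higher and 2 were lower against DU145KO+vector, beside 12.9% and 13.7% of all tested genes. Against DU145KO none was higher and 3 were lower with the block, beside 9.93% and 12.4%. LATS1 had a log2 fold change of 0.11 ± 0.11 against DU145KO+vector (adjusted p = 0.584) and 0.06 against DU145KO.

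FRMD6, a FERM domain protein linked to the relay and named after its values were seen, had 49.99, 84.8, 73.9 and 105 CPM in the 4 samples of DU145KO+vector. It had 45.0, 61.3, 51.8 and 60.0 CPM in those of DU145KO+α2 and 35.3, 59.9, 54.5 and 64.8 CPM in those of DU145KO. Like CTGF it was highest in DU145KO+vector at every number. It passed the test only with the block, in DU145KO+α2 against DU145KO+vector (log2 fold change -0.52, adjusted p = 0.176; with the block 1.13e-04) and in DU145KO+vector against DU145KO (0.55, adjusted p = 0.284; with the block 1.61e-04).

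The TEAD factors gave log2 fold changes of 0.16 each for TEAD1, TEAD2, TEAD3 and TEAD4 in DU145KO+α2 against DU145KO+vector, with adjusted p-values of 0.175, 0.332, 0.280 and 0.456. With the block TEAD1 alone passed (adjusted p = 0.0305), in a fit where 12.9% of all tested genes were higher. Against DU145KO their log2 fold changes ran from 0.08 (TEAD3) to 0.18 (TEAD2), and TEAD2 alone passed with the block (adjusted p = 0.294 without it, 0.0331 with it). There 9.93% of all tested genes were higher with the block. VGLL1, VGLL2 and VGLL3, cofactors that compete with YAP for TEAD, had at most 1 count in any sample, and VGLL4 had a log2 fold change of -0.04 against DU145KO+vector.

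Among the genes of junctions and polarity that feed into YAP control, WTIP, an Ajuba family LIM protein like AJUBA, rose against DU145KO+vector (0.95 ± 0.26, adjusted p = 0.0250) and kept its call in 7 of 12 fits that left out 1 sample. Among 8 tested paralogues of the 10 genes and their ligands, MERTK, a TAM receptor related to AXL, rose against both other lines (0.47, adjusted p = 0.0235, and 0.58, adjusted p = 0.00949). MERTK was the only 1 of the 8 called in either comparison, beside 5.96% and 3.09% of all tested genes higher. Against DU145KO+vector it kept the call in 6 of 12 fits that left out 1 sample, and against DU145KO in 12 of 12. With the replicate block 2 of these 8 genes were higher and 1 was lower against DU145KO, beside 9.93% and 12.4% of all tested genes. Against DU145KO+vector 1 was higher and none lower with the block, beside 12.9% and 13.7%.

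Targets of SRF and its coactivator MRTF, which respond to actin as YAP does, were read for comparison. Of 17 tested, 3 rose and 1 fell against DU145KO+vector, with a list median of -0.04, beside 5.96% of all tested genes higher and 5.95% lower. TPM1 (0.44 ± 0.09, adjusted p = 0.00313), CALD1 (0.42 ± 0.11, 0.0173) and SRF itself (0.25 ± 0.08, 0.0496) rose, and TPM2 fell (-0.66 ± 0.15, 0.00895). TPM1 and TPM2 encode tropomyosins and CALD1 encodes caldesmon, proteins of actin filaments. The 20 tested genes nearest to TPM2 on chromosome 9 had a median of -0.67, which is the size of its own change. Against DU145KO, TPM1 (0.51, adjusted p = 0.00153), SRF (0.28, 0.0419) and TGFB1I1, a focal adhesion LIM protein (0.69, 0.0381), rose. These were 3 of the 17, and none fell, beside 3.09% of all tested genes higher and 5.08% lower. In fits that left out 1 sample SRF kept its call against DU145KO+vector in 2 of 12 and against DU145KO in 4 of 12, and TGFB1I1 in 6 of 12. TPM1 kept both of its calls and TPM2 its call in 12 of 12, and CALD1 in 9. SRF was also not called against either line with library size alone or with only the 2 lines compared. With the replicate block 4 genes of the list were higher and 1 was lower against DU145KO, beside 9.93% and 12.4% of all tested genes. Against DU145KO+vector 4 were higher and 2 lower with the block, beside 12.9% and 13.7%.

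**Figure D4:**
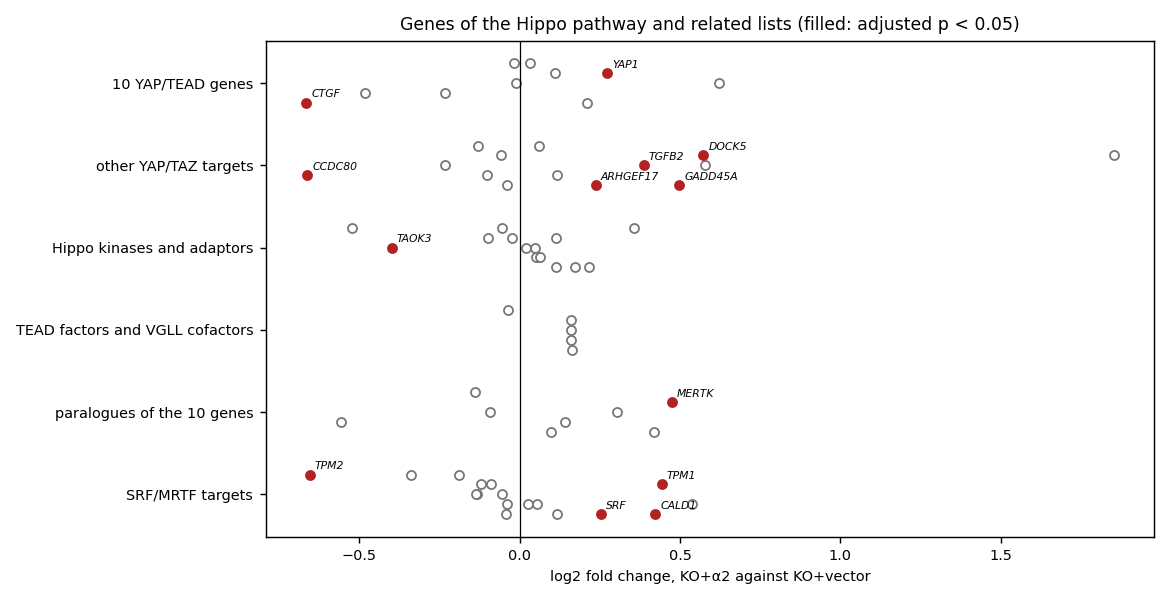
Log2 fold changes in DU145KO+α2 against DU145KO+vector for the 10 genes and the tested genes of 5 related lists, 1 point per gene and 1 row per list, filled and named where the adjusted p was below 0.05. The points of every list lie on both sides of 0, from -0.67 (CTGF) to 1.85 (IGFBP3).

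Markers of other cells and of epithelial identity were read beside these results. The summed CPM of the 4 epithelial markers was 686 to 963 in DU145KO+α2, 923 to 1176 in DU145KO+vector and 1026 to 1373 in DU145KO. CDH1, the gene of E-cadherin, through which cell contact restrains YAP, fell against DU145KO+vector (-0.70 ± 0.16, adjusted p = 0.00981) and against DU145KO (-1.13, adjusted p = 5.40e-04). In DU145KO+vector against DU145KO, CDH1 had -0.43 (adjusted p = 0.189), with every DU145KO+vector sample below every DU145KO sample. EPCAM fell against DU145KO (-1.14, adjusted p = 1.86e-05) and had -0.31 against DU145KO+vector (adjusted p = 0.0917). EPCAM also fell in DU145KO+vector against DU145KO, 2 lines that both lack the α2 cDNA (-0.83, adjusted p = 9.30e-04). KRT18 fell against DU145KO (-0.42, adjusted p = 0.0434, a call kept in 4 of 12 fits that left out 1 sample). Without the block 1 of the 4 epithelial markers was lower against DU145KO+vector and 3 against DU145KO, beside 5.95% and 5.08% of all tested genes. With the replicate block 3 of the 4 were lower against DU145KO+vector and 4 of 4 against DU145KO, beside 13.7% and 12.4% of all tested genes. Of the endothelial markers KDR rose (1.14 ± 0.29, adjusted p = 0.0183, a call kept in 10 of 12 such fits) against DU145KO+vector on 10 to 50 counts per sample, VWF had at most 4 counts and PECAM1 8 to 22. KDR had 0.05 against DU145KO (adjusted p = 0.943), and in DU145KO+vector against DU145KO it had -1.08 (adjusted p = 0.0698; with the block 0.00857). The summed CPM of the 5 fibroblast markers was 9.84 to 11.5 in DU145KO+α2, 7.71 to 11.6 in DU145KO+vector and 9.04 to 12.3 in DU145KO, nearly all of it COL1A1, since COL1A2 and COL3A1 had at most 3 counts. Their part in the values of the 10 genes was not tested, and in bulk RNA fewer cells with a transcript and less transcript per cell cannot be told apart.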

How the data were processed

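RNA from 12 spheroid samples (4 per line) was made into stranded mRNA libraries. Per the labels and methods, the authors used bcl2fastq 1.8.4, aligned reads with TopHat2 2.1.0 to hg38 and counted uniquely mapped reads per gene with Subread 1.5.0, and whether counting used strand is not given in the sources used here. The deposited tables hold raw counts and TMM-normalised RPKM values made by the authors with edgeR. RPKM were used for levels only. Counts were tested with the quasi-likelihood F-test of edgeR 4.0.16 (R 4.3.3) in 1 model of all 12 samples, with TMM scaling, filterByExpr with a minimum count of 10, robust dispersion and two-sided p-values adjusted by Benjamini-Hochberg over the 14732 tested genes. A gene counted as changed at an adjusted p below 0.05. Alternatives were DESeq2 1.42.0, limma 3.58.1 with voom, other scalings and filters, leaving out samples, and the replicate number as a block. The deviations of samples with the same number correlated in all 12 pairs (r = 0.13 to 0.55, median 0.39, other pairs -0.29 to 0.15). The main model nevertheless held no term for the number. Only the fits with the block took the numbers to pair samples. The 10 genes and all lists were chosen with earlier results of these data known. Beside the 10 genes and ITGA2, list genes are named where their adjusted p was below 0.05 in a comparison with DU145KO+α2, at most 4 per direction and list, plus TEAD1 to TEAD4 and LATS1, and the 3 genes most like CTGF and CYR61. Some list genes that this rule names are not reported here. Of the table rows, 42 had no symbol but an ID naming the gene and held at most 0.0635% of reads. Fitting was tested on simulated data. Promoter windows are from RefSeq, matched for 8 of 10 genes, and positions from GENCODE. Counting error alone sets a floor of 3 counts, 0.150 to 0.215 CPM.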

Additional observations from a re-analysis of the deposited data

Results flagged for a closer look

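Of 36 groups of 4 samples examined (the 10 genes, ITGA2 and the total counts in each line), 2 held a sample that stood further from the others than Dixon's 95% limit allows, and chance flags about 5% of groups. ANKRD1 had 2.08 CPM in DU145KO+vector replicate 2, against 1.09 CPM in the nearest of the other samples. WWTR1 had 168 CPM in DU145KO+vector replicate 2, against 174 CPM in the nearest.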

How the results depend on the processing

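In DU145KO+α2 against DU145KO+vector, 2 of the 10 genes changed under each of the other scalings, tests and filters run without the block, and 5 changed with the replicate block or with voom and the block, the latter added after the data were seen, as were the blocked fits without 1 number. Against DU145KO the count was 0, but 1 with DESeq2 and 2 with either blocked fit, and for DU145KO+vector against DU145KO it was 0, but 1 with library size alone, DESeq2, voom or no filter, 3 with the replicate block and 4 with voom and the block. Leaving out 1 sample or 1 replicate number gave 1 to 5, 0 to 3 and 0 to 4 changed genes in the 3 comparisons, the upper ends from blocked fits. Over all tested genes, the counts of 1754, 1203 and 344 became 3911, 3286 and 1980 with the replicate block and 3942, 3206 and 1965 with voom and the block, DESeq2 called 587 in the last, and the fits with 1 sample or number left out ran from 1229 to 3393, 837 to 2711 and 160 to 1669. Of the block's calls, the text gives each that differed from the unblocked fit for the 10 genes.

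Log2 fold changes close to 0 changed sign without passing any test. Against DU145KO, ANKRD1 (-0.0059) had 0.0019 with DESeq2 size factors or with only the 2 lines compared, 0.0093 with DESeq2, 0.032 with voom, 0.0034 with no filter, 0.013 with the replicate block and 0.030 with voom and the block, and CRIM1 (-0.0059) had 0.0033 with DESeq2 size factors or DESeq2, 0.0065 with no filter and 0.0040 with only the 2 lines compared. With 1 sample or number left out, the ranges that crossed 0 were, against DU145KO+vector, -0.096 to 0.071 for AXL and -0.067 to 0.052 for CRIM1, against DU145KO, -0.095 to 0.21 for CTGF, -0.25 to 0.38 for ANKRD1, -0.013 to 0.17 for AJUBA and -0.074 to 0.067 for CRIM1, and for DU145KO+vector against DU145KO, -0.0024 to 0.32 for CYR61 and -0.061 to 0.072 for CRIM1. Other scalings moved the median of all genes by less than 0.01. The lowest counts among the 10 genes were those of ANKRD1, 15 to 58 per sample. The causes were not tested.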
